A study of Mus musculus with 10 samples.

Results

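The homeostatic lymphoid chemokines Ccl19, Ccl21, Cxcl12 and Cxcl13 were followed here with Ccr7, the receptor of Ccl19 and Ccl21, as 5 genes. They were chosen by name from the biology of lymphoid tissue, with Ccl21a, Ccl21b and Ccl21c counted as 1 gene (Ccl21), and they are 5 of the 19503 genes of the array table. Earlier results of these data were known when these genes and the gene lists below were chosen. Their counts beside the shares of all genes are therefore descriptive and do not test the group. The study put CD4+ T cells carrying GFP or oncogenic Vav1, a form of the signalling protein Vav1, into immunocompromised mice and examined tissue 6 months later. The 4 groups were GFP spleen (labelled WT + GFP, 2 arrays), Vav1 spleen (WT + Oncogenic Vav1, 4 arrays), GFP lymph node (2 arrays) and Vav1 lymph node (2 arrays), all of strain C57BL/10. The arrays came from 7 named animals, of which 3 gave both tissues, so the spleen and lymph node arrays are not all independent. The labels do not say which Vav1 change was used, what made the hosts immunocompromised, or which lymph nodes were taken.

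Lymphoid organs are kept in order by chemokines made without inflammation. Ccl19 and Ccl21 are ligands of the receptor Ccr7 and draw T cells and mature dendritic cells to the T cell zone, where reticular fibroblasts make both, while the high endothelial venules of mouse lymph nodes make Ccl21. Cxcl13, made by follicular stroma, draws B cells into follicles through Cxcr5, and Cxcl12, made by reticular cells and other stroma, acts through Cxcr4. Lymphotoxin and the noncanonical NF-kB pathway are known to keep these genes on in stroma.

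Ccl19 and Ccl21a lie side by side on mouse chromosome 4, with no gene listed between them. With oncogenic Vav1, Ccl21 was lower in both tissues. Ccl19 lay higher in spleen and lower in lymph node, and passed the test in neither. The stretch before each start site is shown. Both are the 250 bases upstream of the RefSeq start in build GRCm38.p6 on the minus strand, at chr4:42756366-42756615 for Ccl19 and chr4:42773992-42774241 for Ccl21a. Capitals mark 2 motifs searched on both strands, the interferon response core (GAAA, any 2 bases, GAAA) and the TATA form ATAAAT; the 2 do not overlap in either window.
Ccl19: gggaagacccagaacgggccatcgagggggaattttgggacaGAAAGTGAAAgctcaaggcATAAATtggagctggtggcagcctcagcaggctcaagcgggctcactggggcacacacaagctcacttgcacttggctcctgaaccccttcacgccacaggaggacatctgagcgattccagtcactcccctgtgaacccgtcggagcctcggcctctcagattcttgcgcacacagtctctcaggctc
Ccl21a: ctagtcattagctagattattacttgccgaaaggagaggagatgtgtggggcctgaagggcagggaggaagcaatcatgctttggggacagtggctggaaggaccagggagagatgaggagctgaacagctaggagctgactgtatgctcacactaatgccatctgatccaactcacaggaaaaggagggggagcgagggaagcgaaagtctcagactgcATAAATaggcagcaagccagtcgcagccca
The Ccl19 window held the interferon response core once, starting 208 bases before the start site, and ATAAAT once, 189 bases before it. The Ccl21a window held ATAAAT once, 30 bases before its start site, and no interferon response core. The windows of Cxcl12 and Cxcl13 also held none, and that of Cxcl13 held ATAAAT 3 times. Of 32851 mouse promoter windows of the same length, 2.977% held the interferon response core and 12.468% held ATAAAT. A match describes the letters of the window and does not show a bound factor.

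The probe sets of the Ccl21 copies gave nearly the same values on these arrays. Upstream, windows were compared without gaps at shifts of up to 2 bases. The Ccl21a window matched that of Ccl21d at 99.6% of 249 bases and that of Ccl21b at 32.7% of 248. A larger offset or a gap between windows would also lower the match, so the Ccl21b value does not show that its upstream sequence is unrelated. The 4 probe sets annotated to Ccl21a, Ccl21b or Ccl21c lay within 0.126 to 0.473 of each other on every array on the log2 scale. A Ccl21b and the Ccl21c probe set carried identical values. The probe set annotated Ccl21a, with the highest mean, stands for Ccl21 below. With the others in its place the lymph node difference was -2.44 or -2.58 in place of -2.43, and the spleen difference -1.74 or -1.82 in place of -1.75.

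The labels name CD4+ T cells as the cell type, but the arrays carried the transcripts of whole lymphoid tissue. Cd4 lay at 8.02 to 9.62 on the log2 scale over the 10 arrays and the T cell receptor subunit Cd3e at 8.50 to 10.6. The B cell receptor subunit Cd79a lay at 10.0 to 11.9, with none of its values near the 40th percentile of all genes (5.645 to 5.837). Cxcl12, Cxcl13 and Ccl21, products of stroma, were above that percentile on all 10 arrays, as were Ccl19 and Ccr7. In such bulk samples, fewer cells of a type and less RNA per cell cannot be told apart. Array medians lay between 6.27 and 6.41, and all 5 genes were among the 13391 tested. Nothing beyond the animal names says that arrays of a group are separate experiments.

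In spleen, Ccl21, Cxcl13 and Ccr7 fell with oncogenic Vav1, while Ccl19 and Cxcl12 did not pass the test. Ccl21 was 3.38-fold lower, Cxcl13 1.84-fold lower and Ccr7 1.82-fold lower. So 3 of the 5 genes changed, all of them lower, where 26.8% of all genes tested changed and 9.75% were lower (limma, Benjamini-Hochberg adjusted p under 0.05).

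Ccl21, the Ccr7 ligand made by reticular fibroblasts of the T cell zone, read 11.07 and 10.70 on the log2 scale in GFP spleen. In Vav1 spleen it read 8.73, 8.83, 10.07 and 8.91. Every Vav1 spleen lay below both GFP spleens, with replicate 3 well above the other 3. The difference was -1.75 (SE 0.32, confidence interval -2.46 to -1.04, adjusted p = 0.0038 by limma).

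Cxcl13, the B cell attractant of the follicle, read 12.47 and 12.56 in GFP spleen, and 11.52, 11.40, 11.89 and 11.72 in Vav1 spleen. The groups did not overlap. The difference was -0.88 (SE 0.14, confidence interval -1.19 to -0.58, adjusted p = 0.0019 by limma).

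Ccr7, the receptor that T cells and mature dendritic cells use to reach the T cell zone, read 10.20 and 10.00 in GFP spleen. It read 9.11, 9.21, 9.22 and 9.38 in Vav1 spleen, a narrow range below both GFP values. The difference was -0.87 (SE 0.16, confidence interval -1.22 to -0.51, adjusted p = 0.004 by limma).

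Ccl19, the soluble Ccr7 ligand, lay the other way in spleen. It read 8.18 and 7.89 in GFP spleen, and 8.98, 8.72, 8.74 and 8.66 in Vav1 spleen, so that all Vav1 spleens were above both GFP spleens. The difference of 0.74 (SE 0.30, confidence interval 0.07 to 1.40) had an adjusted p of 0.091 by limma and did not pass. A fit of only the 6 spleens put it past the threshold, at an adjusted p of 0.0013 by limma. Leaving out Vav1 lymph node replicate 1 gave 4e-04, and leaving out replicate 2 gave 0.00033. With the median of the intronic control probe sets as a covariate, described below, the difference turned to -0.0964 (adjusted p = 0.89 by limma). Groups that do not overlap were common in spleen, at 55.6% of all genes tested, 30.3% higher and 25.2% lower.

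Cxcl12, the Cxcr4 ligand, read 9.95 and 9.68 in GFP spleen, and 9.04, 9.15, 9.74 and 8.85 in Vav1 spleen. Vav1 spleen replicate 3 lay inside the GFP range. The difference was -0.62 (SE 0.21, adjusted p = 0.054 by limma), and without replicate 3 it was -0.80 and passed (adjusted p = 0.0053 by limma). Over all alternatives it ran from -0.80 to -0.0884, the latter with the intronic control covariate (adjusted p = 0.86 by limma).

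The spleen calls rest on 2 GFP arrays: without GFP spleen replicate 1, Ccl21 (-1.57) and Ccr7 (-0.77) each had an adjusted p of 0.06 by limma, which left 1 of the 3 calls, that of Cxcl13. The median of the array's intronic control probe sets was higher in GFP spleen (5.87 and 5.69) than in Vav1 spleen (5.43 to 5.55). With it as a covariate Ccl21 (-0.94, adjusted p = 0.20) and Cxcl13 (-0.69, adjusted p = 0.077) did not pass by limma. Of the 5 genes 1 passed, Ccr7. The control medians of the 2 spleen groups do not overlap, so the covariate and the construct cannot be told apart there. GFP lymph node (5.46 and 5.38) also lay apart from GFP spleen.

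**Figure D1:**
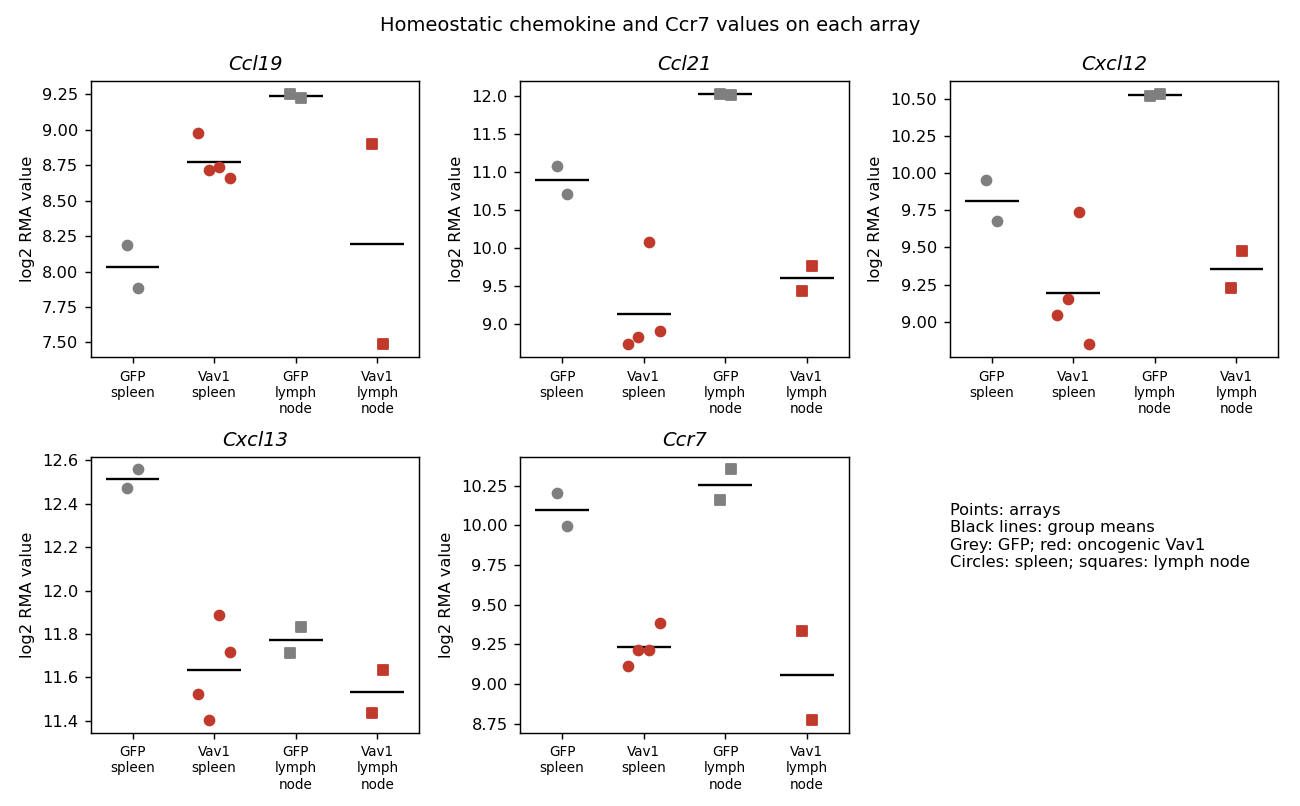
Log2 RMA values of the 5 genes (vertical axes, 1 panel a gene) on each of the 10 arrays, by group (horizontal axes), with points for arrays and black lines for group means. Ccl21 is highest in GFP lymph node, at 12.01 and 12.03, and Ccl19 in Vav1 lymph node spans 7.49 to 8.90.

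In lymph node, Ccl21, Cxcl12 and Ccr7 fell with oncogenic Vav1. Ccl21 was 5.38-fold lower, Ccr7 2.30-fold lower and Cxcl12 2.25-fold lower. Ccl19 and Cxcl13 did not pass the test. All 5 genes were lower in both Vav1 lymph nodes than in either GFP lymph node, a pattern that 28.7% of all genes tested share. The 3 genes that passed compare with 18.7% of all genes changed and 10.8% lower.

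Ccl21 read 12.03 and 12.01 in GFP lymph node and 9.44 and 9.76 in Vav1 lymph node. The gap between the groups was several times the spread within either. The difference was -2.43 (SE 0.37, confidence interval -3.25 to -1.61, adjusted p = 0.0014 by limma).

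Ccr7 read 10.16 and 10.35 in GFP lymph node and 9.34 and 8.77 in Vav1 lymph node. The difference was -1.20 (SE 0.18, confidence interval -1.61 to -0.79, adjusted p = 0.0015 by limma). Cxcl12 read 10.52 and 10.53 against 9.23 and 9.48. Its difference was -1.17 (SE 0.25, confidence interval -1.72 to -0.63, adjusted p = 0.0084 by limma). The 2 GFP lymph nodes lay close together for Cxcl12 and further apart for Ccr7.

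Ccl19 read 9.25 and 9.22 in GFP lymph node, but 8.90 and 7.49 in Vav1 lymph node. Vav1 lymph node replicate 1 thus lay just under the GFP values and replicate 2 far below. The difference was -1.04 (SE 0.35, adjusted p = 0.061 by limma). Without replicate 1 it was -1.75 (adjusted p = 9.1e-06 by limma), and without replicate 2 it was -0.34. With all arrays and the intronic control covariate the Ccl19 difference was -1.04 and passed (adjusted p = 0.018 by limma). Vav1 lymph node replicate 2 and Vav1 spleen replicate 3 came from the same animal, ONCO3.

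Cxcl13 read 11.71 and 11.83 in GFP lymph node and 11.44 and 11.63 in Vav1 lymph node, groups that nearly touch. The difference was -0.24 (SE 0.16, confidence interval -0.59 to 0.11, adjusted p = 0.35 by limma).

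With the lymph node arrays fitted alone, Ccr7 had an adjusted p of 0.079 by limma and did not pass. Cxcl12 did not pass without either GFP lymph node array, replicate 1 (adjusted p = 0.064) or replicate 2 (adjusted p = 0.067), both by limma.

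Between tissues in GFP mice, Ccl19 was 2.31-fold higher in lymph node than in spleen and Cxcl13 1.68-fold lower. The Ccl19 difference was 1.21 (SE 0.35, adjusted p = 0.042) and that of Cxcl13 -0.75 (SE 0.17, adjusted p = 0.012), both by limma with the animal as a random block. Over all genes 16% changed between these tissues, 11.6% higher in lymph node and 4.41% lower. Ccl21 at 1.14 (adjusted p = 0.069) and Cxcl12 at 0.72 (adjusted p = 0.083) lay on the higher side in lymph node and did not pass by limma. Ccr7 differed by 0.16, with a confidence interval of -0.27 to 0.58. Without any 1 of the 4 GFP arrays both calls were lost, and that of Ccl19 also without Vav1 spleen replicate 1, 3 or 4 (adjusted p from 0.062 to 0.2 for Ccl19 and 0.055 to 0.13 for Cxcl13 by limma). With the intronic control covariate Ccl19 differed by 0.21 (adjusted p = 0.69) and Cxcl13 by -0.31 (adjusted p = 0.29), while Ccl21 at 2.39 (adjusted p = 0.00087) and Cxcl12 at 1.42 (adjusted p = 0.0027) passed by limma, and with arrays centred on their median Ccl19 had an adjusted p of 0.05.

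In Vav1 mice no member of the group passed between tissues, where 0.0373% of all genes did. Ccl19 differed by -0.58 (adjusted p = 0.54), Ccl21 by 0.50 (adjusted p = 0.58) and Cxcl12 by 0.18 (adjusted p = 0.75). Cxcl13 differed by -0.10 (adjusted p = 0.80) and Ccr7 by -0.18 (adjusted p = 0.67), all by limma. Without Vav1 lymph node replicate 1, Ccl19 at -1.28 (adjusted p = 9.4e-05) and Ccr7 at -0.46 (adjusted p = 0.021) passed by limma, both lower in lymph node. Without replicate 2 both turned, to 0.136 for Ccl19 and 0.106 for Ccr7, and neither passed.

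The effect of oncogenic Vav1 on Ccl19 differed between tissues. The difference of the effects, lymph node minus spleen, was -1.79 (SE 0.47, confidence interval -2.84 to -0.75, adjusted p = 0.043 by limma), where 8.04% of all genes passed, 7.11% below 0. For Cxcl13 it was 0.65 (adjusted p = 0.10), with the larger fall in spleen, for Ccl21 -0.65 (adjusted p = 0.46), for Cxcl12 -0.53 (adjusted p = 0.36) and for Ccr7 -0.33 (adjusted p = 0.44), none of them past the threshold by limma. The Ccl19 call was lost when arrays were centred on their median (adjusted p = 0.053) and with the intronic control covariate (-0.89, adjusted p = 0.23), both by limma. With that covariate Ccl21 passed (-1.61, adjusted p = 0.043 by limma). The Ccl19 call held without Vav1 spleen replicate 2 or either Vav1 lymph node array, and was lost without any other array. Without Vav1 spleen replicate 1, 3 or 4 its adjusted p was 0.074 to 0.094 by limma. With each array left out the Ccl19 difference ran from -2.47 to -1.06.

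**Figure D2:**
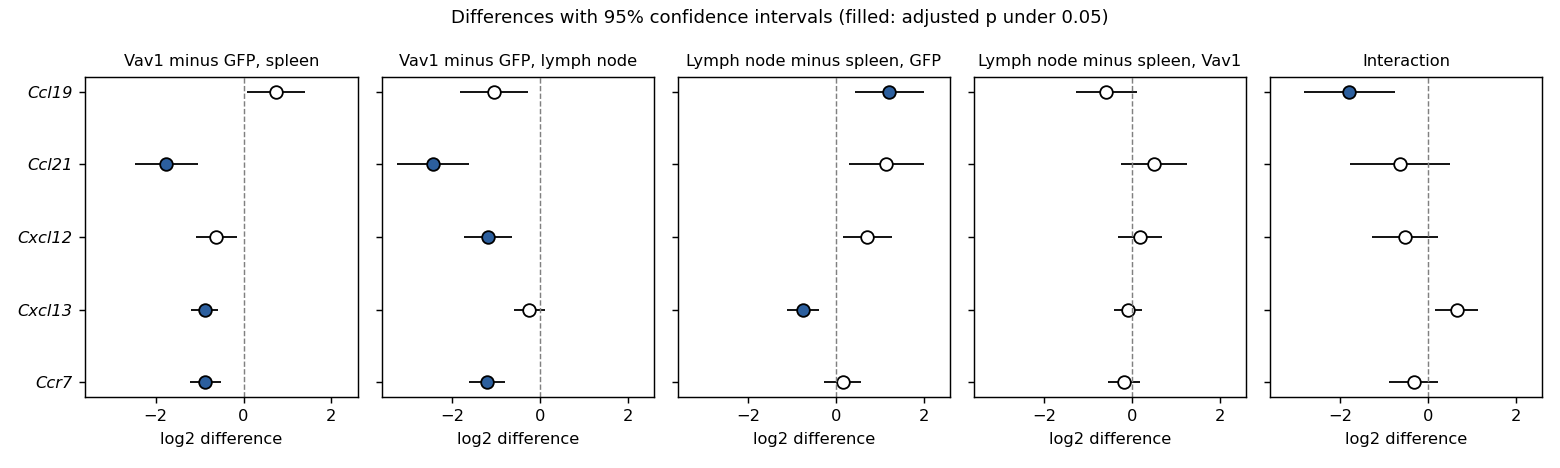
Log2 differences of the 5 genes (points) with confidence intervals (lines) in 5 comparisons, with filled points for adjusted p under 0.05 by limma. The panel named interaction is the Vav1 effect in lymph node minus that in spleen, and Ccl19 at -1.79 is its 1 filled point.

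The levels of each gene fell into an order over the 4 groups. Ccl21 and Cxcl12 shared it, with GFP lymph node highest (means 12.02 and 10.52), then GFP spleen (10.89 and 9.81), Vav1 lymph node (9.60 and 9.35) and Vav1 spleen (9.13 and 9.20). For both genes the arrays of the last 2 groups overlapped. Cxcl13 was highest in GFP spleen (12.5), clear of GFP lymph node (11.8), Vav1 spleen (11.6) and Vav1 lymph node (11.5), whose neighbours overlapped. Ccr7 split by construct, with GFP lymph node (10.3) and GFP spleen (10.1) overlapping each other and lying above Vav1 spleen (9.23) and Vav1 lymph node (9.05). Ccl19 alone ran GFP lymph node (9.24), Vav1 spleen (8.77), Vav1 lymph node (8.19) and GFP spleen (8.03), with the last 3 neighbours overlapping.

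The 2 ligands of Ccr7 were compared within each array, a comparison chosen after their values were seen. Ccl19 minus Ccl21, on the log2 scale, was -2.89 and -2.82 in GFP spleen and -2.78 and -2.79 in GFP lymph node. In Vav1 spleen it was 0.25, -0.11, -1.34 and -0.25, and in Vav1 lymph node -0.53 and -2.27. The 4 GFP arrays lay close together and all 6 Vav1 arrays above them. Only the change between groups can be read, since the probe sets differ. That change was 2.49 in spleen (two-sided exact permutation p = 0.133) and 1.38 in lymph node (two-sided exact permutation p = 0.333). The test doubled the one-sided p, and each value is the smallest that this form allows with these arrays. The change restates the Ccl19 and Ccl21 differences given above and was picked after seeing them, so these p-values add no support. In lymph node it was 0.52 without Vav1 lymph node replicate 1 and 2.25 without replicate 2.

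**Figure D3:**
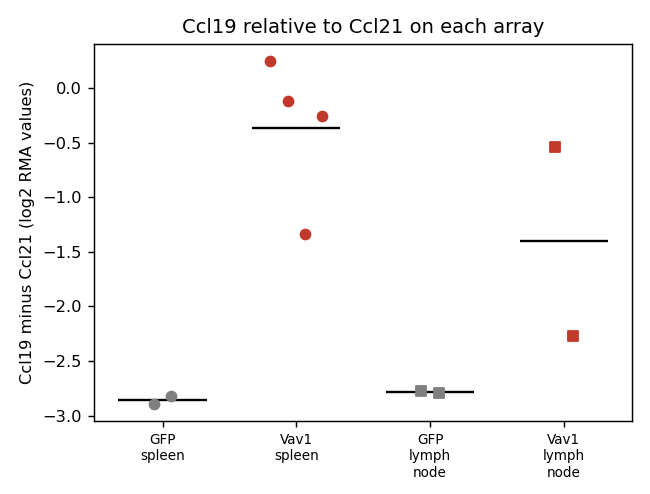
Ccl19 minus Ccl21 (log2 RMA values, vertical axis) on each array by group, with points for arrays and black lines for group means. The GFP arrays lie between -2.89 and -2.78, and the Vav1 arrays spread from -2.27 to 0.25.

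Of the other receptors and scavengers of these ligands, 3 of 5 tested genes changed in spleen and 2 of 5 in lymph node, beside 26.8% and 18.7% of all genes tested. Ackr3, a scavenger of Cxcl12, fell by 1.05 in spleen (SE 0.23, adjusted p = 0.0085 by limma) and differed by 0.01 in lymph node (adjusted p = 0.98 by limma). With the intronic control covariate the spleen calls of Ackr3 (-0.87, adjusted p = 0.18) and Ccrl2 (1.46, adjusted p = 0.065) were lost by limma and Cxcr4 passed (-0.97, adjusted p = 0.045). Dpp4, a protease that trims Cxcl12, fell in spleen (-0.75) and lymph node (-0.83). Ccrl2, a chemokine-binding receptor without known signalling, rose in spleen (0.99) and lymph node (1.46). Cxcr4, the Cxcl12 receptor, differed by -0.48 in spleen (adjusted p = 0.079) and 0.26 in lymph node (adjusted p = 0.46), and Cxcr5, the Cxcl13 receptor, by -0.63 (adjusted p = 0.08) and 0.24 (adjusted p = 0.61), none of them past the threshold by limma. In GFP mice, Cxcr5 (-1.39), Ackr3 (-1.47) and Cxcr4 (-0.95) were lower in lymph node than in spleen. Without GFP spleen replicate 1 none of the 5 passed in spleen, and without either Vav1 lymph node array all 5 did. In lymph node, none passed without GFP lymph node replicate 1 or 2, and 4 without Vav1 lymph node replicate 2.

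Ccr7 moved in the company of other genes of T cell homing and the resting state, of which 6 of 7 tested fell in spleen (median -0.85) and 7 of 7 in lymph node (median -1.02). Medians over all genes tested were 0.0019 and -0.015, and 9.75% and 10.8% of all genes tested were lower past the threshold. Lef1, a transcription factor of resting T cells, differed by -1.61 in spleen and -2.73 in lymph node, both past the threshold. In spleen S1pr1, the receptor by which lymphocytes leave tissue, fell by 1.44 and Gpr183, an oxysterol receptor that positions lymphocytes, by 0.88. In lymph node Il7r, the interleukin 7 receptor, fell by 1.29 and Foxo1, a transcription factor that drives Ccr7 in T cells, by 1.02. In spleen 2 passed with GFP spleen replicate 1 left out and 3 with replicate 2 left out, and without GFP lymph node replicate 1 or 2 the lymph node count was 2 or 3, respectively. It was 2 in spleen with the intronic control covariate and 1 in lymph node with the lymph node arrays alone. Ccr7 is itself carried by T cells, B cells and mature dendritic cells. The mean of 7 T cell markers ran from 9.21 to 9.65 in Vav1 spleen against 8.79 to 8.83 in GFP spleen, and from 8.16 to 9.31 in Vav1 lymph node against 9.87 to 9.89 in GFP lymph node. That of 7 B cell markers ran from 9.70 to 10.03 in Vav1 spleen against 10.87 to 10.95 in GFP spleen, and from 9.23 to 9.86 in Vav1 lymph node against 9.82 to 9.87 in GFP lymph node. That of 5 mature dendritic cell genes ran from 7.58 to 7.71 in Vav1 spleen against 7.29 to 7.502 in GFP spleen, and from 7.33 to 7.89 in Vav1 lymph node against 8.76 to 8.83 in GFP lymph node. The part of these cells in the Ccr7 differences was not tested.

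Stromal genes were counted beside the ligands. Of 15 tested genes of reticular fibroblasts, 8 fell and 1 rose in lymph node (median -0.77), where 10.8% of all genes tested fell. In spleen 2 of the 15 rose (median 0.14), where 17.1% of all genes tested rose. Lum and Col3a1, matrix genes of fibroblasts, fell in lymph node (-2.95 and -2.87), and Grem1, a secreted antagonist made by reticular cells, by 1.82. In spleen Dcn, a matrix proteoglycan, rose by 1.63 and Des, a filament of contractile stroma, by 0.79. With the intronic control covariate neither passed, Dcn at 0.28 (adjusted p = 0.54) and Des at 0.33 (adjusted p = 0.59) by limma. Without any 1 of the GFP or Vav1 spleens or GFP lymph nodes, Des did not pass. Lum lay below the 40th percentile on all 6 spleen arrays (4.20 to 4.49) and in both Vav1 lymph nodes (4.37 to 4.61), so its lymph node difference is only a bound on the fall. Without GFP lymph node replicate 1 or 2 the lymph node count was 3, and with the lymph node arrays alone 5. In spleen none of the 15 passed without GFP spleen replicate 1, 1 passed without its replicate 2 or Vav1 spleen replicates 1, 2 or 4, and 4 without either Vav1 lymph node array.

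Of 10 tested genes of blood and lymphatic endothelium, 5 fell in lymph node and none rose, where 10.8% of all genes tested fell, and 3 passed with the lymph node arrays alone. Lyve1, a receptor of lymphatic endothelium, fell by 2.62 and Cdh5, the junction cadherin of endothelium, by 1.42. Pecam1, an adhesion molecule of endothelium, differed by -1.21 in lymph node and passed. In spleen Pecam1 fell by 0.91 and Eng rose by 0.74, with the other 8 not past the threshold. Of all genes tested in spleen, 17.1% rose and 9.75% fell. With the intronic control covariate Pecam1 did not pass in spleen (adjusted p = 0.06 by limma). Among 9 tested genes of follicular dendritic cells, Cr2, which B cells also carry, fell by 1.94 in spleen, and Vcam1 rose by 1.37 in spleen and 1.14 in lymph node. Tnfsf13b, a survival factor of B cells, rose by 0.83 in spleen, and Madcam1, an adhesion molecule, by 1.501 in lymph node. Madcam1 read 6.81 and 8.51 in Vav1 lymph node against 6.14 and 6.17 in GFP lymph node. In lymph node 2 of the 9 genes rose and none fell, where 18.7% of all genes tested changed in either direction. With the lymph node arrays alone none of the 9 passed, with Madcam1 at an adjusted p of 0.24 by limma. Of those 9 genes 3 rose and 1 fell in spleen, where 17.1% of all genes tested rose and 9.75% fell. With the intronic control covariate 2 passed. Fewer passed without GFP spleen replicate 1 or 2 than with all arrays, and more without either Vav1 lymph node array.

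Of 7 tested fat cell genes, 3 fell in spleen, Car3 (-3.27), Adipoq (-2.17) and Fabp4 (-1.22), where 9.75% of all genes tested fell. Car3 and Adipoq lay below the 40th percentile on all 4 Vav1 spleens, so these differences are only bounds. With the intronic control covariate none of the 7 passed in spleen. All 7 fell in lymph node, and 3 passed with the lymph node arrays alone. Their mean level was 11.13 and 11.21 in GFP lymph node against 7.23 and 8.38 in Vav1 lymph node. The mean of the 15 reticular fibroblast genes was 8.06 and 8.07 against 7.42 and 6.87. All 8 tested neutrophil genes rose in both tissues. All 6 tested erythroid genes rose in lymph node, with a mean of 8.62 and 10.74 in Vav1 against 6.38 to 6.47 in GFP lymph node. With the lymph node arrays alone 1 of the 6 passed. Over all genes tested, 17.1% rose in spleen, 10.8% fell in lymph node and 18.7% changed there in either direction. Of the genes that changed in lymph node, 42.2% were higher. Of the 6 erythroid genes, 3 passed without either GFP lymph node array and 4 without Vav1 lymph node replicate 2. The part of fat, blood cells or tissue makeup in the Ccl21, Cxcl12 and Ccl19 differences was not tested.

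Of 12 tested genes of lymphotoxin and noncanonical NF-kB signalling, 2 rose in spleen (Tnf by 1.25 and its receptor Tnfrsf1a by 1.07) and 2 fell in lymph node, where 17.1% of all genes tested rose in spleen and 10.8% fell in lymph node. With the intronic control covariate Tnf was 0.092 (adjusted p = 0.90) and Tnfrsf1a 0.26 (adjusted p = 0.53), by limma. The lymph node pair was Ltb, a lymphotoxin subunit (-0.96), and Tnfrsf11a, the receptor of RANK ligand (-0.64). In spleen none of the 12 passed without GFP spleen replicate 1 or 2, 1 without Vav1 spleen replicate 1 or 3, and 4 without either Vav1 lymph node array. The lymph node count was 0 without GFP lymph node replicate 1 or 2, 7 without Vav1 lymph node replicate 1 and 4 without replicate 2, and 1 without GFP spleen replicate 1 or 2 or Vav1 spleen replicates 1, 3 or 4.

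Inflammatory chemokines moved the other way from Ccl21 and Cxcl13 in spleen. Of 10 tested, 9 rose in spleen (median 2.84) and none fell, where 17.1% of all genes tested rose; with the intronic control covariate 5 passed. Ccl8, a monocyte attractant, rose by 5.55, Ccl3 by 4.99 and Ccl5 by 2.82. Ccl8 (4.43 to 4.86) and Ccl3 (4.85 to 5.16) lay below the 40th percentile in both GFP spleens, so their differences are only lower bounds. In lymph node Ccl3 rose by 2.46, the 1 of 10 past the threshold (median 0.54), where 18.7% of all genes tested changed. The lymph node count was 0 without GFP lymph node replicate 1 or 2, 5 without Vav1 lymph node replicate 1, 6 without replicate 2 and 2 without Vav1 spleen replicate 3. It was 6 with the intronic control covariate. Whether these 10 differ from the homeostatic genes was not tested.

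**Figure D4:**
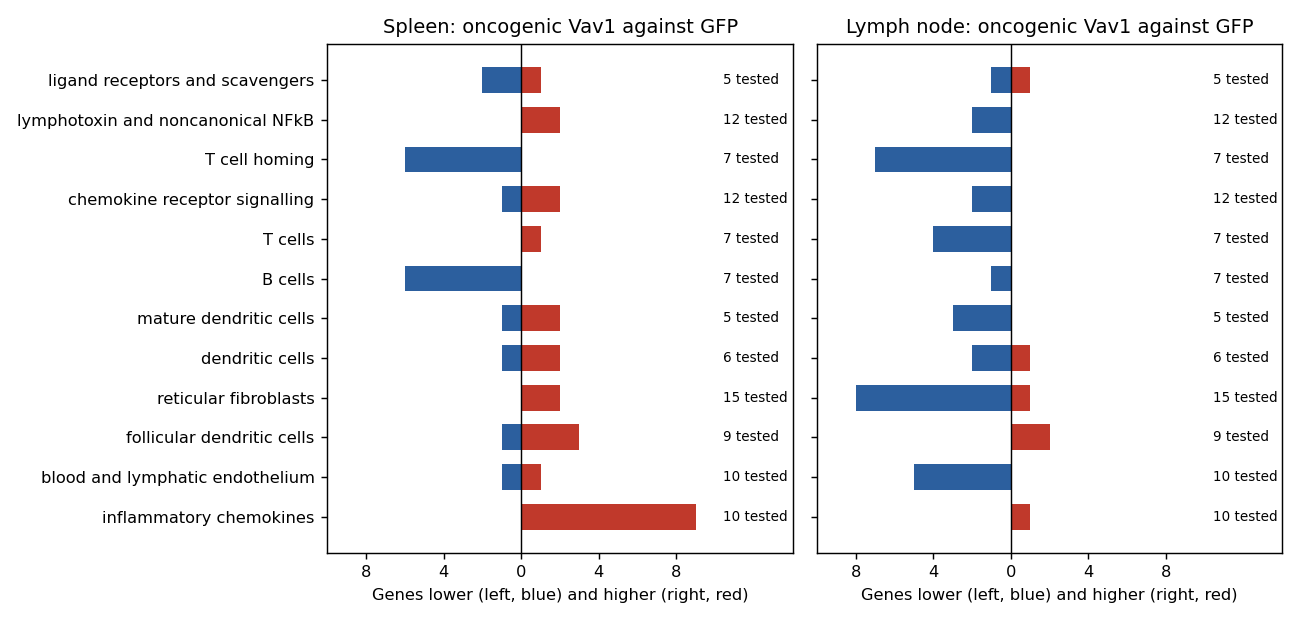
Number of genes past adjusted p under 0.05 by limma (horizontal axes, lower to the left in blue and higher to the right in red) in 12 gene lists, for spleen and lymph node, with the number tested beside each. Inflammatory chemokines are higher in 9 of 10 in spleen, and T cell homing genes are lower in 7 of 7 in lymph node. Over all genes tested, 17.1% were higher in spleen and 10.8% lower in lymph node.

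Genes whose level followed each member most closely were ranked by the root mean square gap between profiles centred on their own mean, over the 10 arrays. The nearest to Ccl19 were Tuba1a (0.127), S100a4 (0.144) and Pea15a (0.159), against an SD of 0.548 for Ccl19 itself. The nearest to Ccl21 were Cd209d (0.311), Efemp1 (0.36) and Mmp12 (0.376), against 1.19. For Cxcl12 they were Itsn1 (0.134), Ppargc1a (0.165) and F3 (0.168), against 0.555. For Cxcl13 they were Baz2b (0.0962), Fam193b (0.116) and Gpr174 (0.123), against 0.379. For Ccr7 they were Gramd1a (0.147), Scml4 (0.155) and Galnt6 (0.161), against 0.522. The profile of Ccl21 was followed less closely than the others in absolute terms, and it also varied most. No 2 of the 5 genes shared any of the 3 genes kept for each. As few were kept and the gap also depends on how much a gene varies, this does not measure how alike the 5 are.

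**Figure D5:**
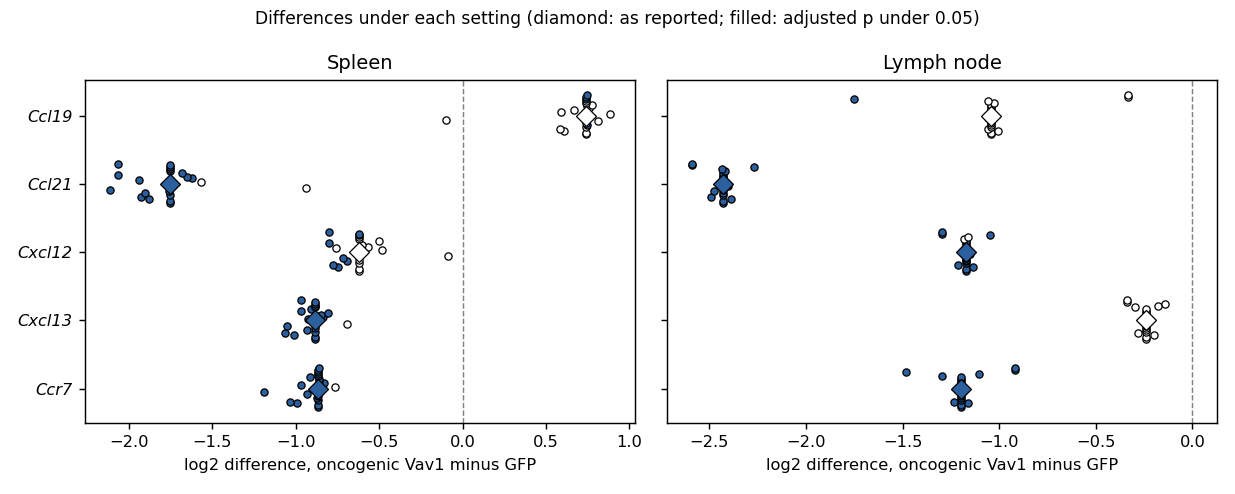
Log2 differences, oncogenic Vav1 minus GFP (horizontal axes), of the 5 genes in spleen and lymph node as reported (diamonds) and under each other setting (points), filled for adjusted p under 0.05 by limma. Ccl21 is below 0 in both tissues under every setting shown, and Ccl19 in spleen lies above 0 except for -0.0964 with the intronic control covariate.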

How the data were processed

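RNA of spleen and lymph node was measured on single-colour Affymetrix arrays, 10 in all. The deposited values are log2 values that the authors made with RMA in R 3.6.3 (from the submitters' processing notes, per the labels). RMA corrects background, evens out array distributions and summarises probes, so a shift common to most genes is removed. The array annotation version was not given in the sources used here.

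The gene symbols came from GEO's platform annotation. Of 29129 probe sets, 19572 had 1 symbol. The probe set with the highest mean stood for a gene, giving 19503 genes. Testing was limited to the 13391 genes that exceeded an array's 40th percentile on 2 or more arrays (6112 left out). Of 160 list genes, 145 were on the table and 142 were tested; the others were not analysed here.

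limma 3.58.1 in R 4.3.3 (statmod 1.5.0) fitted the 4 groups with a variance trend and 6 residual degrees of freedom. Tissue differences and the interaction had the animal as a random block (correlation -0.113), so they can differ slightly from differences of means. Confidence intervals are 95%. p-values were Benjamini-Hochberg adjusted over all genes tested, with 0.05 as the threshold. The scripts were tested on simulated data.

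Genes of a list were named from the 3 with the lowest p in each tissue (all receptors and scavengers), and not all of these are described. The members and lists were chosen with earlier results of these data known. Alternatives covered scaling, filter, array weights, an intronic control covariate, blocks, the probe set rule and each array left out.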

Additional observations from a re-analysis of the deposited data

Results flagged for a closer look

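Vav1 spleen replicate 3 stood apart from the other 3 Vav1 spleens for 2 genes. It came from the animal ONCO3, as did Vav1 lymph node replicate 2, the array with the lowest Ccl19 value. Its Ccl21 value was 10.0722 on the log2 scale against 8.9079 in the nearest, a gap that was 0.866 of the group's range where 0.829 is the critical value. Its Ackr3 value was 7.9043 against 7.0853 in the nearest, a gap that was 0.948 of the range. Such gaps were looked for in 10 genes of this group, and chance gives about 1 in 20 groups. The difference between the effects of oncogenic Vav1 on Ccl19 in lymph node and in spleen, -1.79415, passed the test of the interaction.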

How the results depend on the processing

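Of the 5 genes, 3 passed in spleen; 5 passed with array weights, with the spleen arrays alone and without the animal ONCO3 (both of its arrays; chosen after seeing the data), 1 with the intronic control covariate, and 1 to 5 when each array was left out. In lymph node 3 passed, and 2 to 4 when each array was left out. Between GFP tissues 2 passed; 1 with arrays centred on their median, 4 with array weights and without ONCO3, and 0 to 4 when each array was left out. Between Vav1 tissues none passed by limma, and 0 to 2 when each array was left out. The interaction had 1; 0 with centring, 2 without ONCO3, and 0 to 3 when each array was left out. Array numbers name different animals and do not pair the samples; with the replicate block, 4 passed between GFP tissues, Cxcl12 in spleen was -0.72 (adjusted p = 0.025) the Ccl19 interaction -1.86 (adjusted p = 0.051) and that of Cxcl13 0.81 (adjusted p = 0.045), Tnf (0.078), Tnfrsf1a (0.051) and Des (0.064) in spleen and Ltb (0.052) in lymph node did not pass at these adjusted p, and Cxcl13 between Vav1 tissues turned to 0.0722. Other reversals were Ccl19 in spleen (-0.0964), Ccr7 between GFP tissues (-0.243) and the Ccr7 interaction (0.0275) with the covariate. With each array left out, lymph node differences ran from -0.108 to 0.134 for Ackr3 (-0.0456 without GFP lymph node replicate 1), -0.151 to 0.675 for Cxcr4 and -0.236 to 0.726 for Cxcr5, lowest without Vav1 lymph node replicate 1 and highest without replicate 2. Between Vav1 tissues, Ccl19 ran from -1.28 to 0.136 and Ccr7 from -0.456 to 0.106, highest without Vav1 lymph node replicate 2, and 0.125 and 0.102 without ONCO3. Centring moved the median of all genes in spleen to -0.126; of called genes 63.7% were higher in spleen, 41.1% with centring and 44.8% with quantile normalization. These shares were 72.5%, 50.1% and 53.1% between GFP tissues, and 11.6%, 33.4% and 28.5% for the interaction. The causes were not tested. The number of arrays limits the precision.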
